A study of Bos taurus with 18 samples.

Results

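ZNF613 was followed along its whole length in sperm DNA of 18 Holstein bulls, from 2000 bp before to 2000 bp after the gene on chromosome 18 (58098688 to 58143930, UMD 3.1; gene from 58100688 to 58141930). Its members were all CpG positions, read on each strand, that at least 1 bull listed there. They numbered 854, or 504 CpGs when both strands were merged, and they carried 3824 of the 193276783 percent values listed genome-wide over the 18 bulls. Methylation was not even along the gene. A set of 3 stretches, at the gene's lower-coordinate end and at 24.3 to 25.8 kb and 28.7 to 30.7 kb inside it, had mean methylation of at most 23.8% in every bull, and 92.2% of the positions outside them had a median above 80%. The intronic tile that the study compared between groups lies across the edge of the second of these stretches.

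Each bull gave 1 whole-genome bisulfite library from sperm, taken as an adult, and the labels rank bulls as high or low for 5 traits recorded in dairy breeding. For gestation length (GL), 4 bulls were labelled high (H03, H09, L03, L05) and 4 low (H02, H05, L01, L07). Sire calving ease (SCE) had H03, H07 and L02 as high and H01, H06 and L09 as low, and body depth (BDE) had H02, L03 and L08 as high and H05, H09 and L02 as low. Under cow conception rate (CCR), H08, H09 and L06 were high, and the low bulls were H06, L08 and L09. Under sire conception rate (SCR), H01, H02 and H03 were high and L01, L02 and L03 low. Bulls H04 and L04 carry no trait label and entered only the description. Bulls serve in several comparisons, and GL shared 4 bulls with BDE and 4 with SCR, so that the 5 comparisons are not independent. Only DNA methylation was measured, and the tissue label was not checked here.

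Zinc finger genes encode proteins that bind DNA through repeated finger-like folds held by zinc, and many of them act as repressors of transcription in the embryo. They often lie in clusters of related copies. In sperm, most CpGs of the genome are methylated. CpG-dense starts of genes are the usual exception, because they escape methylation during germ cell development. Methylation of a position is the percent of reads in which the cytosine was protected from bisulfite conversion.

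Listing of positions set how much could be compared. A position was listed only with at least 10 reads, and the bulls listed between 42 (H01) and 615 (H08) positions in the region, with a median of 199. No position was listed in 15 or more bulls. The most widely listed were 5 positions with 14 bulls, 136 positions were listed in 1 bull only, and the median position was listed in 4. In the 6 bulls whose reads are given, the median was 10 to 11 reads per position and the maximum 19. The files of the other 12 bulls hold percents without reads, and their depth is therefore not given here. At 10 reads, the exact 95% binomial interval (Clopper-Pearson) runs from 0 to 30.8% when no read is methylated, from 18.7 to 81.3% for 5 methylated reads and from 69.2 to 100% when all are. These intervals cover counting error only. Genome-wide, the bulls listed 2858992 to 22048556 positions and averaged 76.8 to 85.0% methylation.

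Of the 854 positions, 508 (59.5%) had a median over the bulls above 80%, 272 (31.9%) had one under 20%, and 74 (8.67%) lay between. Low positions were not scattered. A run of at least 10 positions whose running median over 5 neighbours stayed under 50% was taken as a low stretch, and 3 such stretches held 266 of the 272 low positions and none of the 508 high ones. The stretches covered 12.7% of the region but 35.5% of its listed positions. Listed positions were 48.5 to 58.8 per kb inside them and 13.96 per kb elsewhere.

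**Figure D1:**
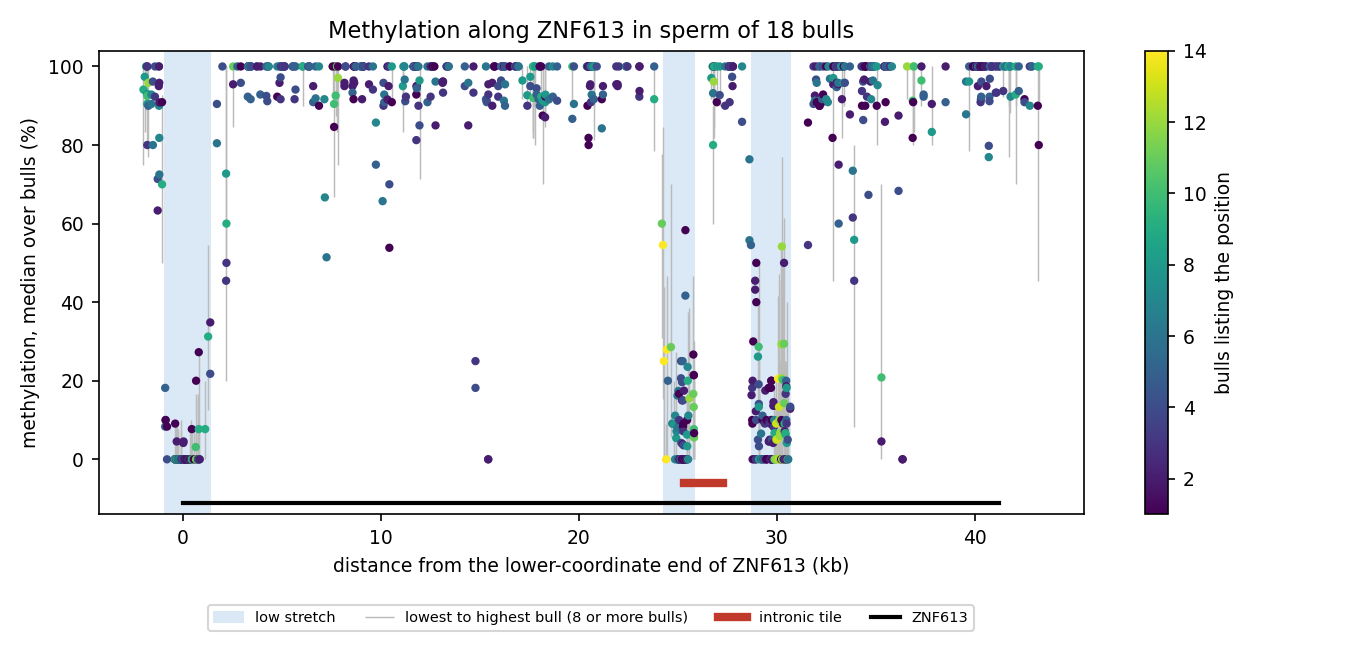
Median methylation over the bulls (vertical axis, percent) of each of the 854 positions against distance from the lower-coordinate end of ZNF613 (horizontal axis, kb), coloured by the number of bulls that list the position, with grey lines from the lowest to the highest bull where 8 or more bulls list it. The 3 shaded low stretches hold 266 of the 272 positions with a median under 20%, the points between them sit mostly above 80%, and the red bar of the intronic tile starts inside the second stretch and ends beyond it.

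The first stretch ran from 58099811 to 58102088 (2278 bp, 114 positions, 62 CpGs) and spans the lower-coordinate end of the gene, from -0.877 to 1.40 kb relative to it. Its positions had a median of 0. Bulls averaged between 0% (H09, 2 positions) and 21.9% (L08, 3 positions) there, with a median over bulls of 2.61%. Apart from L08, the highest mean was 6.52% in H06. The last listed position before it, 58099655, had a median of 70% over 9 bulls, and the next one after it, 58102424, had 80.5% over 6 bulls. The strand of the gene is not given in the sources used here, so whether this end is where its transcription starts cannot be told.

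The second stretch lay inside the gene from 58124996 to 58126521 (1526 bp, 74 positions, 49 CpGs). Its positions had a median of 6.47%, and the bulls' means ran from 0% in H01, which listed 1 position, to 23.8% in H07, which listed 9. The left edge was gradual. Position 58124894 had a median of 60% over 11 bulls and 58124950 one of 54.5% over 14, ranging from 15.4% in H05 to 84.6% in H07. At 58124996 the median was 25% over 14 bulls, and at 58125113 it was 0, with no bull of 14 above 9.09%. Positions 58124950 and 58125113 lie 163 bp apart, and 11 bulls listed both. The fall was not smooth, since 58125141, the next position, had a median of 27.9% over 14 bulls, up to 46.7%. Within the stretch, 14 of the 74 positions had a median from 20 to 80%.

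The third stretch, from 58129423 to 58131378 (1956 bp, 115 positions, 81 CpGs), was the one with the most CpGs. Its positions had a median of 9.09%, and the bulls' means there ran from 4.46% (L03) to 15.6% (L07). Over all bulls this was the narrowest range of the 3 stretches. Without L08, which listed 3 positions in the first stretch, the range there was narrower, from 0 to 6.52%. It was not uniformly low either, with 18 positions whose median was from 20 to 80%. Of its 36 positions listed in 8 or more bulls, 8 had a median of 20% or over, and 5 of these lay between 58130931 and 58131063. The highest was 58130955, with a median of 54.2% over 12 bulls, from 21.4% in L01 to 76.9% in H04. Position 58130948, only 7 bp away, had a median of 20.6% in the same 12 bulls, from 0% in H02 to 38.5% in L04.

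Between the stretches the gene was methylated. Of the 551 positions outside them, 92.2% had a median above 80%, and their overall median was 100%. When the gene was divided into the tiles of 2000 bp that the study used, 18 of 23 tiles had a median of the bulls' means above 80%, 2 had one under 20% and 3 lay between. The 2 low tiles began at 58100001 (median 2.26%, bulls from 0% to 19.2%) and 58130001 (median 9.81%, bulls from 0% to 14.98%). The 3 tiles between, which begin at 58124001, at the start of the intronic tile and at 58128001, each held listed positions on both sides of an edge of the second or of the third stretch. Of the 8 tiles of the gene that all 18 bulls listed, 4 had a median above 80%, 2 had one under 20% and 2 lay between. In the whole genome, 2.91% of the 343256 tiles listed in all 18 bulls had a median under 20%, 12.3% lay between and 84.8% were above 80%.

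**Figure D2:**
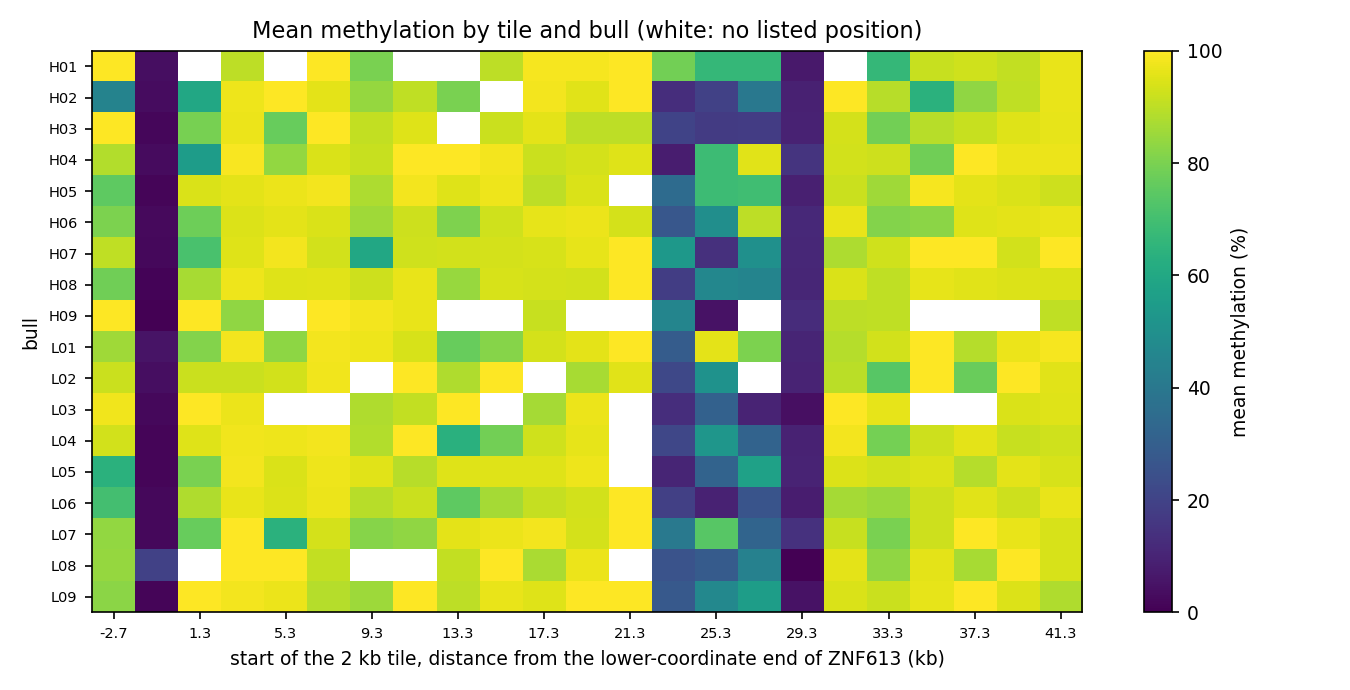
Mean methylation (colour, percent) of the listed positions in each 2000-bp tile (columns, labelled by distance from the lower-coordinate end of the gene in kb) for each of the 18 bulls (rows), with white where a bull lists no position. The tiles that start at -0.7 and 29.3 kb are dark in all bulls, the tiles that start at 23.3 to 27.3 kb change most from bull to bull (SD 17.5 to 25.4 points), and the other 18 are mostly bright (SD up to 14.2 points), with single lower bulls such as H02 (44.7%) at -2.7 kb. The first and the last tile are shown for their part within 2000 bp of the gene.

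Within each kind of position the bulls' means lay close together. Inside the low stretches the bulls' means ran from 4.93% (L09) to 14.4% (L08), with an SD of 2.47 points, and outside them from 89.4% (H02) to 94.0% (H08), with an SD of 1.30 points. Means over all listed positions of the gene ran much wider, from 47.0% in H03 to 78.6% in H01 (SD 8.57 points). The share of a bull's positions that lay inside the stretches ran from 16.7% (H01) to 53.5% (H03). Bulls H03, H02, L03 and L05 had the largest shares, 46.5 to 53.5%, and the lowest whole-gene means, 47.0 to 53.0%. H01 and L01 had the smallest shares, 16.7 and 19.7%, and the highest means, 78.6 and 76.3%. Because the stretches were defined by low methylation in these same bulls, a link between this share and the whole-gene mean is built in. The narrow spread of the bulls' means inside and outside the stretches is in part built in as well.

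**Figure D3:**
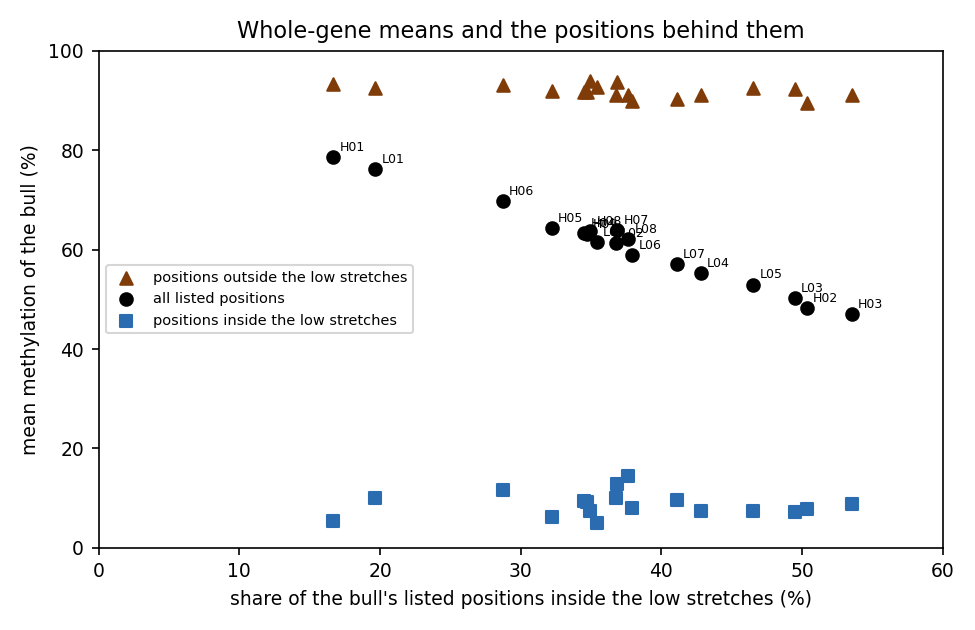
Mean methylation of each bull (vertical axis, percent) over all listed positions (circles), over positions outside the low stretches (triangles) and over positions inside them (squares), against the share of the bull's positions that lie inside the stretches (horizontal axis, percent). Triangles stay between 89.4 and 94.0% and squares between 4.93 and 14.4%, while circles lie lower, from 78.6 down to 47.0%, in bulls with larger shares.

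At 63 positions listed in 10 or more bulls, each bull was set against the median of all bulls at the same position. The mean deviation ran from -3.48 points in L08 to 4.54 points in H07. Agreement between the strands of a CpG was close: over 396 pairs of values read in the same bull, the median absolute difference was 4.14 points inside the stretches (94 pairs) and 6.67 points outside (302 pairs), and 4 pairs differed by more than 30 points.

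A few single positions did vary between bulls. Of the 145 positions listed in 8 or more bulls, 5 had an SD between bulls over 20 points, and all 5 lay outside the low stretches. At 58135982, bulls H05, H06, L01, L02 and L06 had 0%, whereas L05 and H08 had 41.7%, H01 50%, H03 54.5% and H07 70%. No bull lay between these sets. Positions 58102888 and 58102905, 17 bp apart, were both listed in 7 bulls. In H06, H08, L04 and L06 they read 90.9, 100, 100 and 92.9% at the first and 100, 100, 90 and 91.7% at the second. In H03, H04 and L07 they read 53.3, 53.3 and 54.5% and then 53.3, 57.1 and 58.3%. The same 3 bulls were thus intermediate at both. At 58133551, 5 bulls had 94.1 to 100% and H03, H04 and L05 had 45.5, 60 and 66.7%. The fifth position, 58134605, ranged from 8.33% in L08 to 80% in H06. These positions were singled out for their spread and the genotype of the bulls at them was not part of the files.

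The study singled out a tile in the second intron of the gene as differing between these same bulls for GL, SCE, BDE and CCR. Values and tests of it are therefore a description and not independent support. This intronic tile, 25.3 to 27.3 kb from the lower-coordinate end, held 40 listed positions. They fell into 2 sides. On the low side, 28 positions from 58126005 to 58126521 are the end of the second low stretch, and on the high side 12 positions from 58127393 to 58127816 lie beyond it. Between them, 871 bp held no listed position. On the low side 134 of 136 values were under 50%, and on the high side all 75 values were at 60% or more. The 2 exceptions on the low side were 90.9% in H06 at 58126082 and 58.3% in H08 at 58126083, its other strand. At 58126082 the bulls H03, L09, L03 and L05 had 15.4, 40, 41.7 and 45.5%.

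Bulls listed these sides unequally. H02, H07, H09 and L06 listed the low side only, L01 the high side only, and 13 bulls both. Low-side means ran from 0% (H01, 1 position) to 24.2% (H04) in 17 bulls, with an SD of 5.71 points. High-side means ran from 88.5% (L03) to 100% in 14 bulls, with an SD of 3.53 points. Means over the whole tile ran from 5% in H09 to 96.0% in L01, with a median of 46.4% and an SD of 25.4 points. That SD was larger than in 99.3% of the 343256 tiles listed in all bulls, whose median SD was 4.52 points. The bulls with a tile mean under 20% were H09 (5%), L06 (9.42%), H07 (13.7%), H03 (17.4%) and H02 (19.4%), and these listed 0, 0, 0, 1 and 0 positions on the high side. The bulls above 60% were H01 (66.7%), H05 (68.5%), H04 (68.5%), L07 (74.2%) and L01 (96.0%), and these listed 66.7, 66.7, 66.7, 77.8 and 100% of their positions there.

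**Figure D4:**
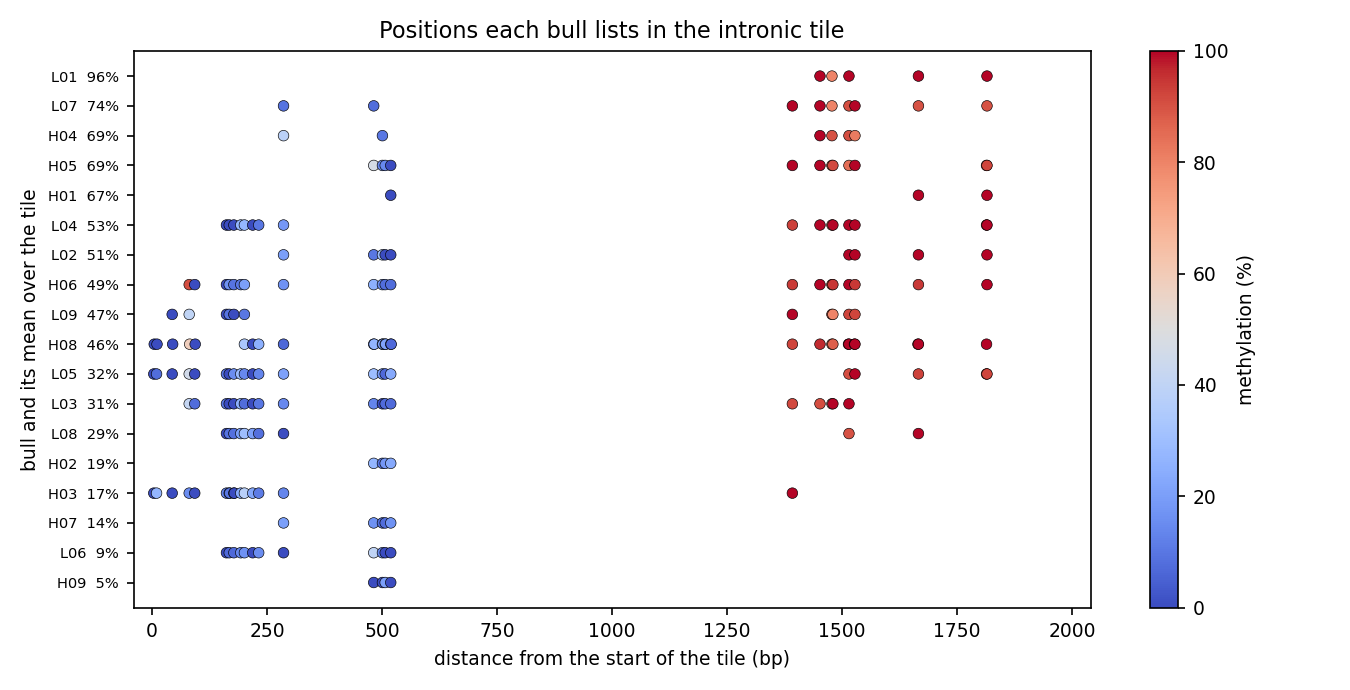
Methylation (colour, percent) of every position each bull lists in the intronic tile, against distance from the start of the tile (horizontal axis, bp), with the bulls ordered by their mean over the tile, which is printed beside each. Points on the left are under 50%, apart from 1 in H06 (90.9%) and 1 in H08 (58.3%), points on the right are at 60% or more, and the bulls with the lowest tile means, from H09 (5%) to H02 (19.4%), have at most 1 point on the right.

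High-GL bulls had tile means of 17.4% (H03), 5% (H09), 30.9% (L03) and 31.8% (L05). Low-GL bulls had 19.4% (H02), 68.5% (H05), 96.0% (L01) and 74.2% (L07). The groups overlapped through H02. The difference, high minus low, was -43.2 points (21.3 ± 12.7 against 64.5 ± 32.3%, SD, n = 4 and 4, two-sided exact permutation p = 0.0857, where 0.0286 is the smallest this design allows). Leaving out each bull in turn gave differences from -32.8 (without L01) to -58.3 points (without H02). In the leave-outs other than H02, the exact permutation p was 0.0857 to 0.114. H02 was the bull through which the groups overlapped, so that its removal separated them completely, and no test is given for that value. On the low side alone, high-GL bulls averaged 10.2 ± 3.75% (n = 4) and low-GL bulls 15.5 ± 6.19% (n = 3), a difference of -5.31 points (exact permutation p = 0.229). On the high side alone, the means were 94.0 ± 5.76% and 94.1 ± 1.64% (n = 3 and 3), a difference of -0.0977 points (exact permutation p = 1). High-side positions made up 13.8 ± 12.7% of the listed positions of high-GL bulls and 61.1 ± 43.0% of those of low-GL bulls (exact permutation p = 0.143). At the 14 positions that both groups shared (at least 1 bull in each), the difference between the group means, averaged over positions with equal weight, was -3.33 points.

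For SCE, the high bulls H03, H07 and L02 had tile means of 17.4, 13.7 and 51.1%, and the low bulls H01, H06 and L09 had 66.7, 49.3 and 46.7%. The difference was -26.8 points (exact permutation p = 0.3; 3 against 3 bulls cannot go below 0.1). It was 3.18 points on the low side (n = 3 and 3) and 4.42 points on the high side (n = 2 and 3), with exact permutation p = 0.7 and 0.4. In BDE, the high bulls H02, L03 and L08 had 19.4, 30.9 and 28.6%, and the low bulls H05, H09 and L02 had 68.5, 5 and 51.1%. The difference was -15.3 points (exact permutation p = 0.5), with 1.95 points on the low side and -4.93 points on the high side. With single bulls left out, the whole-tile difference ran from -33.5 (without H09) to -1.77 points (without H05). The low bull H09 lay below all 3 high bulls.

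For CCR, the high bulls H08, H09 and L06 had tile means of 46.1, 5 and 9.42%, and the low bulls H06, L08 and L09 had 49.3, 28.6 and 46.7%, a difference of -21.3 points (exact permutation p = 0.2). The low side differed by -3.78 points and the high side, with 1 high bull, by 1.28 points. In SCR, the high bulls H01, H02 and H03 had 66.7, 19.4 and 17.4%, and the low bulls L01, L02 and L03 had 96.0, 51.1 and 30.9%, a difference of -24.8 points (exact permutation p = 0.5). It was -0.701 points on the low side and 5.16 points on the high side. With single bulls left out, the whole-tile difference for SCR ran from -40.9 (without H01) to -6.49 points (without L01). Across the 5 traits, the group difference over the whole tile was thus between -15.3 and -43.2 points, and on either side alone it was between -5.31 and 5.16 points. The sides follow a stretch defined by methylation in these same bulls, so small differences within a side are in part built in.

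**Figure D5:**
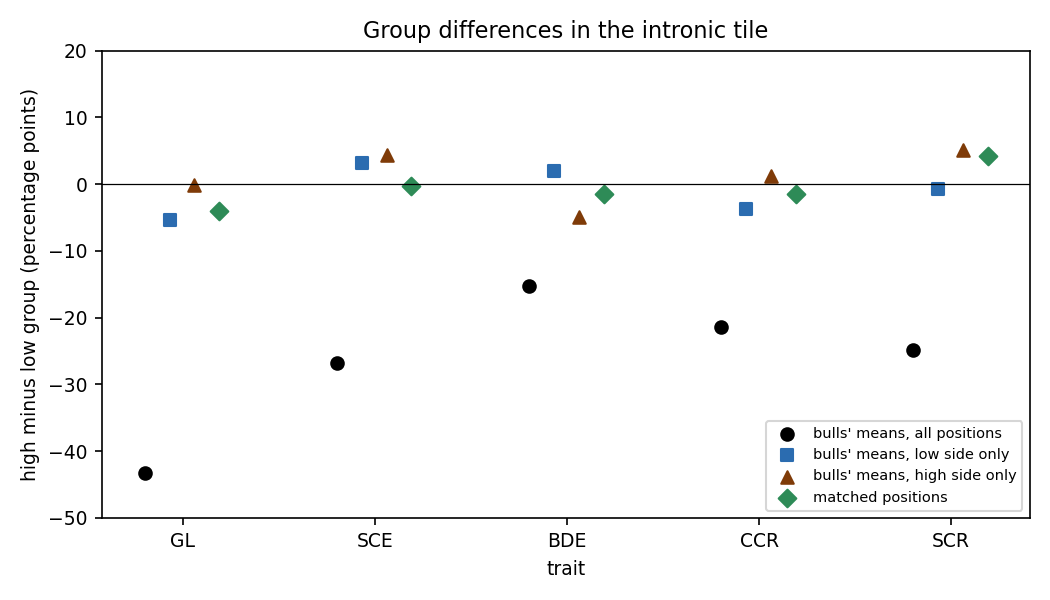
Difference between the high and the low group (vertical axis, percentage points) in the intronic tile for each of the 5 traits (horizontal axis), as the difference of the bulls' means over all listed positions (circles), over the low side only (squares), over the high side only (triangles), and at matched positions (diamonds). Circles sit between -43.2 and -15.3 points, and squares, triangles and diamonds between -5.31 and 5.16 points.

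Tiles were also tested after the study's method, with a logistic regression of pooled reads across all tiles of the genome. A call needs q under 0.01 and a pooled difference over 5 points. The study used read counts, but reads are not given for 12 bulls, and each position counted as 10 reads except in SCR. Of the ZNF613 tiles tested, 2 of 13 were called for GL, 1 of 15 for SCE, 2 of 9 for BDE, 1 of 11 for CCR and 2 of 10 for SCR. Over all tiles of the genome, 8.75% were called for GL, 6.18% for SCE, 7.57% for BDE, 11.1% for CCR and 8.68% for SCR, and the shares in the gene, out of 9 to 15 tiles, were not tested against these. The intronic tile was called for each trait, with pooled differences of -42.3 points for GL (q = 1.69e-31), -23.1 for SCE (q = 1.75e-07), -23.3 for BDE (q = 6.13e-07), -11.2 for CCR (q = 0.00509) and -22.0 for SCR (q = 7.62e-08). For the traits other than SCR, the study had already called this tile on these bulls, so that these calls are not independent support. Called tiles other than this one began at 58124001 for GL (-9.95 points) and BDE (-14.8 points) and at 58098001 for SCR (-15.7 points). Each of these called tiles held listed positions on both sides of an edge of a low stretch. Other tests of such tiles gave no call. These were the tile from 58098001 for GL, SCE, BDE and CCR, that from 58124001 for SCE, CCR and SCR, and that from 58102001 for GL. Whether edges bear on the calls was not tested. The tile from 58128001 was tested in no comparison, because H09 and L02 listed no position there and each comparison includes H09 or L02. When tiles were shifted by 1000 bp, 0 of 16 tiles of the gene were called for SCE and 0 of 12 for BDE, where 6.22% and 7.49% of the shifted tiles of the genome were. Left out alone, H03 for SCE, H05 for BDE and any of H06, L06 and L09 for CCR brought the count to 0, and with each bull left out in turn 6.17 to 6.8% of the tiles of the genome were called for SCE, 6.93 to 7.79% for BDE and 8.53 to 16.9% for CCR. Pooling treats every read as an independent draw and leaves out how far the bulls of a group lie apart.

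At matched positions, with reads stratified by position, 0 of these tiles were called in any of the 5 comparisons, where genome-wide 2.19% (GL), 1.31% (SCE), 1.6% (BDE), 4.4% (CCR) and 2.51% (SCR) of tiles were. This test weights positions by their counted reads, which are 10 per listing bull except in SCR. In the intronic tile its matched difference was -4.02 points for GL (14 positions, q = 0.370), -0.243 for SCE (18 positions), -1.53 for BDE (11 positions), -1.50 for CCR (19 positions) and 4.17 for SCR (17 positions). In the tile from 58124001, it was 1.69 points for GL and 3.95 for BDE, with the sign opposite to that of the pooled difference. In the tile from 58098001, which the SCR comparison called at -15.7 points, it was 0.0856 points over 9 positions. Limma, which takes the spread between bulls into account, called 0 tiles of the gene and 0 (0%) in the genome at an adjusted p under 0.05 in each comparison. For the intronic tile limma gave unadjusted p = 0.00809 for GL and 0.0412 for SCE, and adjusted p of 0.980 and above in every comparison. Counting unadjusted limma p under 0.05, 1 tile of the 13 tested passed for GL, 2 of 15 for SCE and 0 for the other 3 traits, where genome-wide 4.91% of tiles passed for GL, 3.81% for SCE, 4.41% for BDE, 4.11% for CCR and 4.03% for SCR.

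In the tile from 58124001, the high-GL bulls H03, H09, L03 and L05 had means of 19.9, 45.6, 13.2 and 10.5%, and the low-GL bulls H02, H05, L01 and L07 had 13.3, 34.8, 29.0 and 40.6%. The groups overlapped (-7.11 points, exact permutation p = 0.486). Positions outside the stretch made up 23.1 ± 29.1% of the positions of the high bulls and 30.02 ± 16.0% of those of the low bulls (exact permutation p = 0.6). Outside the stretch the difference was -16.4 points (56.4 against 72.8%, 8 against 9 listed values, exact permutation p = 0.143). The bulls did not list the same positions there, and the medians of these differed, such as 91.7% at 58124505 and 54.5% at 58124950. At 58124950 alone, listed by 4 high-GL and 2 low-GL bulls, the difference was 7.98 points. Inside the stretch it was -2.72 points (exact permutation p = 0.457). In the same tile, the high-BDE bulls H02, L03 and L08 had means of 13.3, 13.2 and 25.5% and the low-BDE bulls H05, H09 and L02 had 34.8, 45.6 and 21.8%. Positions outside the stretch made up 11.9 ± 4.76% of the positions of the high bulls and 45.6 ± 23.6% of those of the low bulls, without overlap (exact permutation p = 0.1, the smallest possible). Inside the stretch the difference was -3.69 points and outside it 16.0 points in the other direction, from 6 listed values in each group. At 58124950 alone, with 2 high-BDE and 3 low-BDE bulls, it was 3.87 points. In the part of the tile from 58098001 that lies within 2000 bp of the gene, H02 had 44.7% over 6 positions, 3 of them in the first low stretch, and H01 and H03 had 100% over 1 position each. The low-SCR bulls L01, L02 and L03 had 85.6, 92.1 and 97.7% over 24, 7 and 4 positions. The tile from 58128001 was compared over the bulls that listed it. Differences were -27.2 points for GL and, without overlap, -36.8 for SCE (exact permutation p = 0.2 each). For BDE, with 1 low bull, it was -38.2. CCR gave -27.6 and SCR -3.62 points (exact permutation p = 0.3 and 0.9). Inside the third stretch the differences ran from -14.6 (CCR, 2 high and 3 low bulls) to 5.63 points (SCR, 3 high and 2 low bulls). The low-CCR bull H06 listed 1 position there, at 50%, and the low-CCR bulls L08 and L09 had 18.2 and 11.1%. Outside the third stretch the differences ran from -16.1 (CCR, 2 high and 3 low bulls, without overlap) to 9.57 points (GL, 1 high bull).

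Over the whole gene, the bulls' means differed between the high and low groups by -8.15 points for GL (53.3 ± 6.96 against 61.5 ± 11.8%, n = 4 and 4, exact permutation p = 0.286), -12.6 for SCE (p = 0.2), -9.33 for BDE (p = 0.2), -2.59 for CCR (p = 0.6) and -4.60 for SCR (p = 0.7). The sign turned without H06 for CCR (0.0126 points) and without H02, H03 or L01 for SCR (0.250, 0.883 and 2.24 points). Adjusted over the 5 traits (Benjamini-Hochberg), these exact permutation p-values were 0.476, 0.476, 0.476, 0.7 and 0.7. Inside the low stretches the differences ran from -2.08 points (CCR) to 3.24 points (SCE), and outside them from -1.03 points (SCE) to 0.898 points (GL), with exact permutation p between 0.3 and 0.9. The share of positions inside the stretches did not overlap between the groups for SCE (42.4 ± 9.64 against 26.9 ± 9.49%) and BDE (45.8 ± 7.09 against 34.6 ± 2.27%), each with exact permutation p = 0.1, the smallest that 3 against 3 bulls allow. Of the 15 comparisons of a single stretch between groups, 1 was without overlap. With labels given at random, 3 against 3 bulls separate with a chance of 0.1 and 4 against 4 with 0.0286. A count of 1 in 15 is thus no more than such labels would give. How often stretch means or the share inside separate groups elsewhere in the genome was not computed. In the second stretch, high-CCR bulls averaged 9.55 ± 3.17% and low-CCR bulls 14.97 ± 1.01% (-5.42 points, exact permutation p = 0.1, the smallest possible). In the others the groups overlapped. The exact permutation p was 0.1 or more in all of them, but comparisons of 3 against 3 bulls could not go below 0.1.

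ZNF613 was set beside the other 24 genes that the study fine-mapped for gestation length. The bulls' mean deviations at positions listed in 10 or more bulls were most like those of ZNF613 at LOC107131356 (Pearson r = 0.41 over 18 bulls), SLC39A4 (r = 0.37) and WWP2 (r = 0.36), with SLC39A4 resting on 6 positions. Of the 24 genes, 20 had such positions and were ranked, and DGAT1, BOP1, FBXL6 and SLC52A2 had none. Over the 20, r ran from -0.17 (ZNF16) to 0.41. LOC107131356, SLC39A4 and WWP2 were named as the highest of these 20, and no correlation was tested. These are descriptions, since all genes of a bull were read in the same library at its depth. By the SD of the bulls' means, ZNF613 ranked 11 of 25 genes. Low positions made up 31.9% of its positions, which ranked 6 of 25, and at the other genes the share ran from 0.171% (LOC107131356) to 69.0% (SCRT1).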

How the data were processed

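Sperm DNA of 18 Holstein bulls was read by whole-genome bisulfite sequencing. Per the submitters' processing notes, reads were handled with FastQC 0.11.2, Trim Galore 0.4.0, Bowtie2 and Bismark 0.14.5 on UMD 3.1. The authors deposited the percent methylation of each cytosine in a CpG with at least 10 reads, strands apart, and for 6 bulls (H01 to H03, L01 to L03) also the count of reads. These 6 bulls are those labelled for SCR, so that file format and SCR bulls cannot be told apart. Positions within ZNF613 and 2000 bp on each side were taken, with the gene's coordinates from the study's supplementary data. The intronic tile runs from 58126001 to 58128000. No annotation of UMD 3.1 and no sequence was used here.

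For each comparison, methylated and unmethylated reads were pooled by group in every 2000-bp tile of the genome with a position in every bull. They were tested by a logistic likelihood ratio test, after the study's method. The q-values came from a simplified form of the study's sliding linear model, with the share of unchanged tiles taken from the median slope of the p-value distribution. Each position counted as 10 reads except in SCR, where the listed counts were used. The Cochran-Mantel-Haenszel test used positions shared by both groups (1 or more bulls in each). Limma 3.58.1 in R 4.3.3 used log2 ratios of methylated to unmethylated reads plus 1, with Benjamini-Hochberg adjustment. Bull means were compared by two-sided exact permutation tests (Python 3.11.15, scipy 1.17.1). The permutation and limma p-values measure the spread between bulls, each with 1 library. The p- and q-values of the logistic and Cochran-Mantel-Haenszel tests come from reads and hold no term for that spread. The tests were checked on simulated reads with a single methylation level per tile and group. That check could not cover edges within a tile or spread between bulls of a group.

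Tiles named were the intronic tile, each called tile, the 3 with the lowest median and the 3 with the largest SD between bulls. Likeness to other genes was ranked by Pearson correlation. Members, rules and lists were chosen with earlier results of these data known, and the definition of low stretches after seeing these values. Alternatives were an F test with overdispersion, limma, matched positions, at least 3 positions per bull, tiles shifted by 1000 bp, a 10-point limit, 13 reads per position, strands averaged, bulls by file format, and leaving out each bull.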

Additional observations from a re-analysis of the deposited data

Results flagged for a closer look

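In the part of the tile from 58098001 that lies within 2000 bp of the gene, the high-GL bull L05 had a mean of 64.0% and stood apart from the other 3 high-GL bulls, which had 97.7 to 100%. Its gap to the nearest of them was 0.937 of the group's range, over Dixon's limit for 4 samples. L05 listed 14 positions there, 4 of them in the first low stretch, and the other 3 bulls listed 1 to 4 positions, none of them in the stretch. Only GL has groups of 4 bulls, and 17 sets of 4 values from these groups were examined. This set was the 1 that stood out, and chance gives about 1 in 20 such sets.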

How the results depend on the processing

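Counts of called ZNF613 tiles fell to 0 for GL, SCE, BDE, CCR and SCR in the F test with overdispersion, in limma and at matched positions. The F test and limma each called 0 tiles in the whole genome in every comparison as well. By the F test, 13217 (SCE) to 20593 (GL) tiles of the genome had an unadjusted p under 0.05 with a difference over 5 points. With tiles shifted by 1000 bp the counts were 0 of 16 tested for SCE, 0 of 12 for BDE, 2 of 12 for CCR and 1 of 14 for SCR, where 6.22, 7.49, 11 and 8.75% of the tiles of the genome were called. A limit of 10 points left 1 of 13 tiles for GL (4.9% genome-wide), and at least 3 positions in every bull left 1 of 4 for SCR (9.33% genome-wide). When single bulls were left out, the counts ranged from 1 to 3 for GL (1 without H05 or L07), 0 to 2 for SCE (0 without H03, 2 without L02), 0 to 2 for BDE (0 without H05, 1 without H02 or H09), 0 to 2 for CCR (0 without H06, L06 or L09, 2 without H08) and 1 to 4 for SCR (1 without H03, 4 without L02). Genome-wide, the same leave-outs called 7.84 to 9.12% for GL, 6.17 to 6.8% for SCE, 6.93 to 7.79% for BDE, 8.53 to 16.9% for CCR and 8.47 to 9.38% for SCR.

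At matched positions the difference in the intronic tile was -3.33 points for GL, -0.186 for SCE, -3.30 for BDE, -1.68 for CCR and, with the sign turned, 3.70 for SCR. With the sides of the tile weighted equally, a choice made after seeing the data, it was -0.397 points for GL and -4.60 for BDE, and turned to 3.50 for SCE and 0.279 for SCR, over the 2 or 3 bulls of each group that listed both sides (CCR had 1 such high bull and gets no value). Without single bulls, the difference ranged from -58.3 (without H02) to -32.8 points (without L01) for GL, -38.6 (without L02) to -19.95 (without H07) for SCE, -33.5 (without H09) to -1.77 (without H05) for BDE, -34.3 (without H08) to -13.8 (without H09) for CCR and -40.9 (without H01) to -6.49 (without L01) for SCR. Over the whole gene, matched positions gave -0.225 points for GL, -0.888 for SCE, -0.881 for BDE, -0.370 for CCR and 1.64 for SCR. Equal weights inside and outside the low stretches gave 0.366 for GL, 1.10 for SCE and 0.316 for BDE, against the sign over all positions, and -1.23 for CCR and -1.24 for SCR. Bulls with listed coverage alone gave -13.6 points for GL (2 high, 2 low) and -24.5 for SCE and -12.0 for BDE (2 high, 1 low each), and bulls without it -2.66 for GL (2 high, 2 low), -1.67 for SCE and -1.55 for BDE (1 high, 2 low each). In the intronic tile the same splits gave -33.6 and -52.9 for GL, -32.4 and -34.3 for SCE, and -26.0 and -8.18 for BDE. Over the whole gene, the range without single bulls was -12.5 (without H02) to -3.23 points (without L01) for GL, -16.7 (without L09) to -7.36 (without H03) for SCE, -13.6 (without L08) to -6.69 (without H02) for BDE, -4.04 to 0.0126 for CCR and -14.9 to 2.24 for SCR. The causes of these changes were not tested. No paired analysis was possible because the replicate numbers of the groups only name bulls.

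Precision is limited by few reads per listed position (at least 10), by the absence of any position common to all bulls, and by groups of 3 or 4.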
